A study of Arabidopsis thaliana with 12 samples.

Results

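A set of 61 nuclear RNAs was at or under 0.5 TPM (transcript abundance scaled to the library's total) in both Col-0 flower libraries and at or over 2 TPM in both dcl234 flower libraries, out of 37899 annotated genes on the 5 nuclear chromosomes of Arabidopsis thaliana. The members were selected on exactly these measured values, so their levels in the 4 flower mRNA-Seq libraries are given below as a description, with no test. The members were 17 small nucleolar RNAs (snoRNAs), 14 long non-coding RNAs (lncRNAs), 13 protein-coding genes, 8 microRNA (miRNA) precursor genes, 3 transfer RNAs (tRNAs), 2 small nuclear RNAs (snRNAs), 2 pseudogenes that also have rows in the authors' tables of transposon siRNAs, 1 antisense RNA and 1 miscellaneous RNA. In Col-0 flowers 50 of the 61 were listed at 0 in both libraries and 11 were above 0 in 1 or both, and in Col-0 leaves 35 were above 0 in 1 or both libraries, so the members are not RNAs found only in dcl234 buds.

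The libraries came from rosette and cauline leaves of 4 to 6 week old wild-type Col-0 plants, from unopened floral buds of the same Col-0 plants (Col-0 flowers), and from unopened floral buds of dcl234 plants grown under the same conditions. The dcl234 plants are homozygous for dcl2-1, dcl3-1 and dcl4-2t, so every dcl234 sample is mutant in the same 3 dicer genes and no single mutant was among the samples. Each group had 2 biological replicates, each a separately collected pool of tissue from other plants, with mRNA-Seq and small RNA sequencing (sRNA-Seq) of each. Each comparison therefore rests on 2 samples a side.

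Dicer-like enzymes cut double-stranded RNA into small RNAs. DCL1 releases miRNAs from hairpin precursors, DCL3 makes the short interfering RNAs (siRNAs) that guide DNA methylation to transposons, DCL4 makes trans-acting siRNAs (tasiRNAs) from TAS transcripts, and DCL2 acts on viral and other long double-stranded RNAs. C/D box snoRNAs guide methylation of ribosomal RNA in the nucleolus and carry a C box and a D box near their ends, and snRNAs such as U6 work in the spliceosome. snoRNAs, snRNAs and tRNAs are not dicer products, and most of them have no poly(A) tail. The mRNA-Seq libraries were made from total RNA by the method of Picelli and co-workers. Whether the TPM of RNAs without a poly(A) tail follows their abundance was not tested, so it is not read as such here.

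The mutated genes themselves were read in the mRNA-Seq libraries. DCL3 gave 0.83 and 0.34 TPM in leaves, 3.85 and 4.3 TPM in Col-0 flowers, but 0.4 and 0.37 TPM in dcl234 flowers, and fell by 1.87 on the log2(TPM + 1) scale against Col-0 flowers (SE 0.347, limma adjusted p = 0.0132). DCL2 gave 2.07 and 3.26 TPM in Col-0 flowers against 1.04 and 1.6 TPM in the mutant (limma adjusted p = 0.256). DCL4 gave 3.2 and 4.51 TPM against 3.12 and 2.87 TPM (limma adjusted p = 0.514), so RNA of these genes was still read in dcl234 flowers.

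Short transcripts made up most of the set. The median transcript length was 158 nt, from 68 nt (the MIR156j precursor) to 6504 nt (the pseudogene AT5G35935), against a median of 1338 nt for all nuclear genes. Under 300 nt were 46 members, or 75.4%, compared with 10.3% of all nuclear genes. The rule was met by 0.161% of nuclear genes overall. It was met by 17 of 287 snoRNA genes (5.92%), 8 of 325 miRNA genes (2.46%), 2 of 82 snRNA genes (2.44%), 14 of 3480 lncRNA genes (0.402%), and 13 of 27444 protein-coding genes (0.0474%). The mirrored rule, at or over 2 TPM in both Col-0 flower libraries and at or under 0.5 TPM in both dcl234 flower libraries, was met by 26 genes (0.0686%), of which 9 were under 300 nt and none under 150 nt. No snoRNA and no tRNA met the mirrored rule, whereas 14 lncRNAs did, as many as in the set itself.

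**Figure D1:**
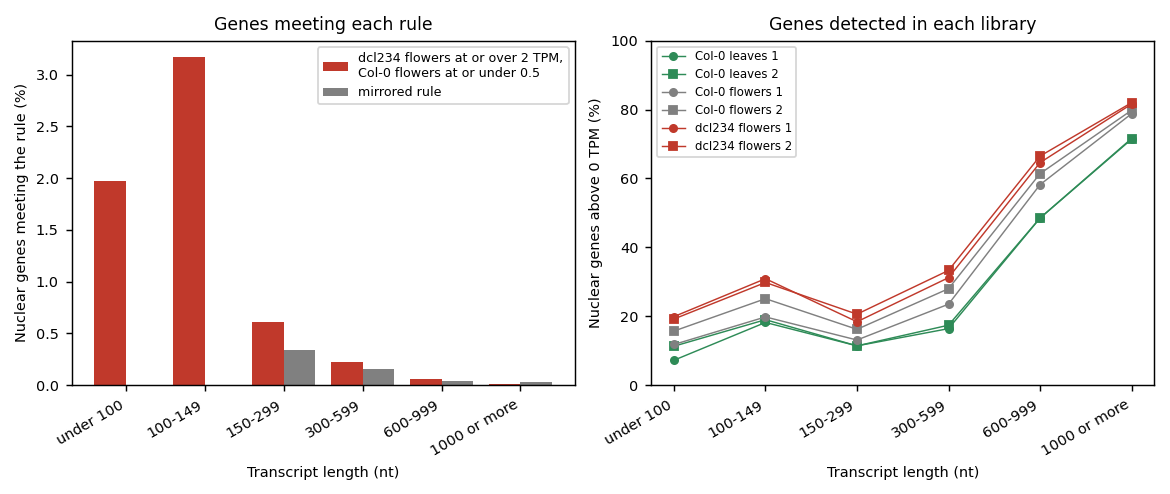
Left, percent of nuclear genes in each transcript length class (nt) that met the rule (red bars) or the mirrored rule (grey bars); right, percent of nuclear genes above 0 TPM in each mRNA-Seq library by the same classes, with circles for replicate 1 and squares for replicate 2. The rule was met most often from 100 to under 150 nt (3.17%), and in the class under 100 nt the dcl234 flower libraries detected 19.9% and 19.2% of genes against 11.8% and 15.7% in Col-0 flowers.

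Detection of short transcripts also differed between libraries over all genes, not only over the members. Of the 913 nuclear genes with a transcript under 100 nt, 19.9% and 19.2% were above 0 in the 2 dcl234 flower libraries. The shares were 11.8% and 15.7% in Col-0 flowers, while leaves had 7.23% and 11.3%. Of the 24029 genes of 1000 nt or more, the shares were 81.6% and 82.0%, 78.8% and 79.8%, and 71.4% and 71.6%. snoRNAs as a class were above 0 for 67.9% and 66.9% of genes in dcl234 flowers and for 50.2% and 61% in Col-0 flowers. The part of this library-wide difference in the members' values was not tested.

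The TPM values moved in steps that correspond to whole read pairs, from which the number of read pairs behind each value was estimated. Under 200 nt only 57.1 to 64.8% of the low values were whole within 0.1 pair, against 90.2 to 91.4% from 600 to 2500 nt, so the estimates for the shortest members are approximate. For a single snoRNA of 87 nt, AT1G03506, 1 read pair was worth 15.5 and 12.2 TPM in the Col-0 flower libraries and 8.86 and 8.8 TPM in the dcl234 flower libraries. For the bZIP58 transcript of 944 nt the same step was 0.143 and 0.147 TPM in Col-0 flowers. In 47 of the 61 members a single pair in Col-0 flowers would have exceeded 0.5 TPM in both libraries, so the rule could be met there only with less than a whole pair (MIR825 had an estimated 0.268 pairs in Col-0 flowers replicate 2), and in 29 members 1 pair was enough to pass 2 TPM in both dcl234 flower libraries. Both dcl234 flower libraries together held at most 5 estimated pairs for 24 members, over 5 and up to 10 for 8, over 10 and up to 20 for 12 and over 20 for 17, with a median of 9.11 and a maximum of 777 (AT5G35935). The estimated totals of nuclear read pairs were 11500000 and 10300000 in Col-0 flowers, 11000000 and 13300000 in dcl234 flowers, while leaves had 7340000 and 6820000.

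Counting error is large at such numbers. A count of 0 allows up to 3 pairs, and for the lncRNAs the median in both dcl234 flower libraries together was 22.9 pairs, for the protein-coding members 17.9, for the miRNA genes 3.9 and for the snoRNAs 2.99.

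**Figure D2:**
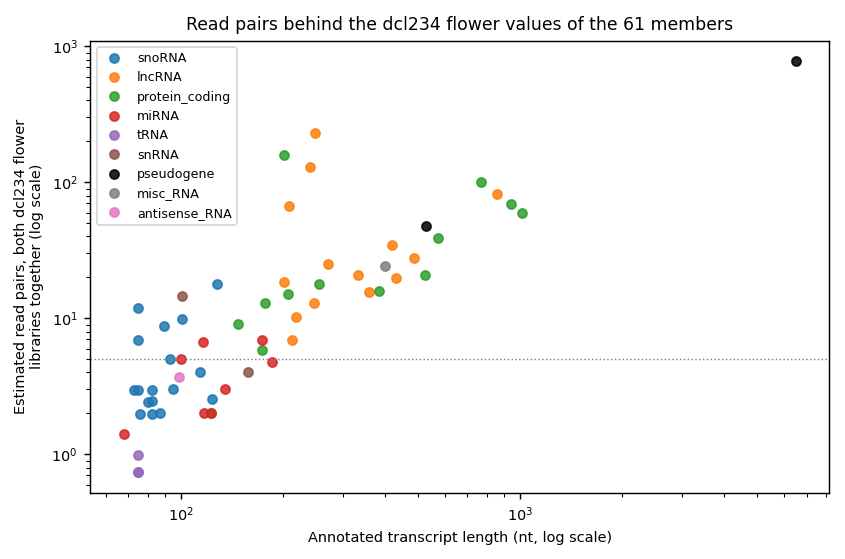
Estimated read pairs in both dcl234 flower libraries together (log scale) against annotated transcript length in nt (log scale) for the 61 members, coloured by annotated class, with a dotted line at 5 pairs. The tRNAs, most miRNA genes and most snoRNAs lie at or under 5 pairs, and the pseudogene AT5G35935 lies highest with 777.

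**Figure D3:**
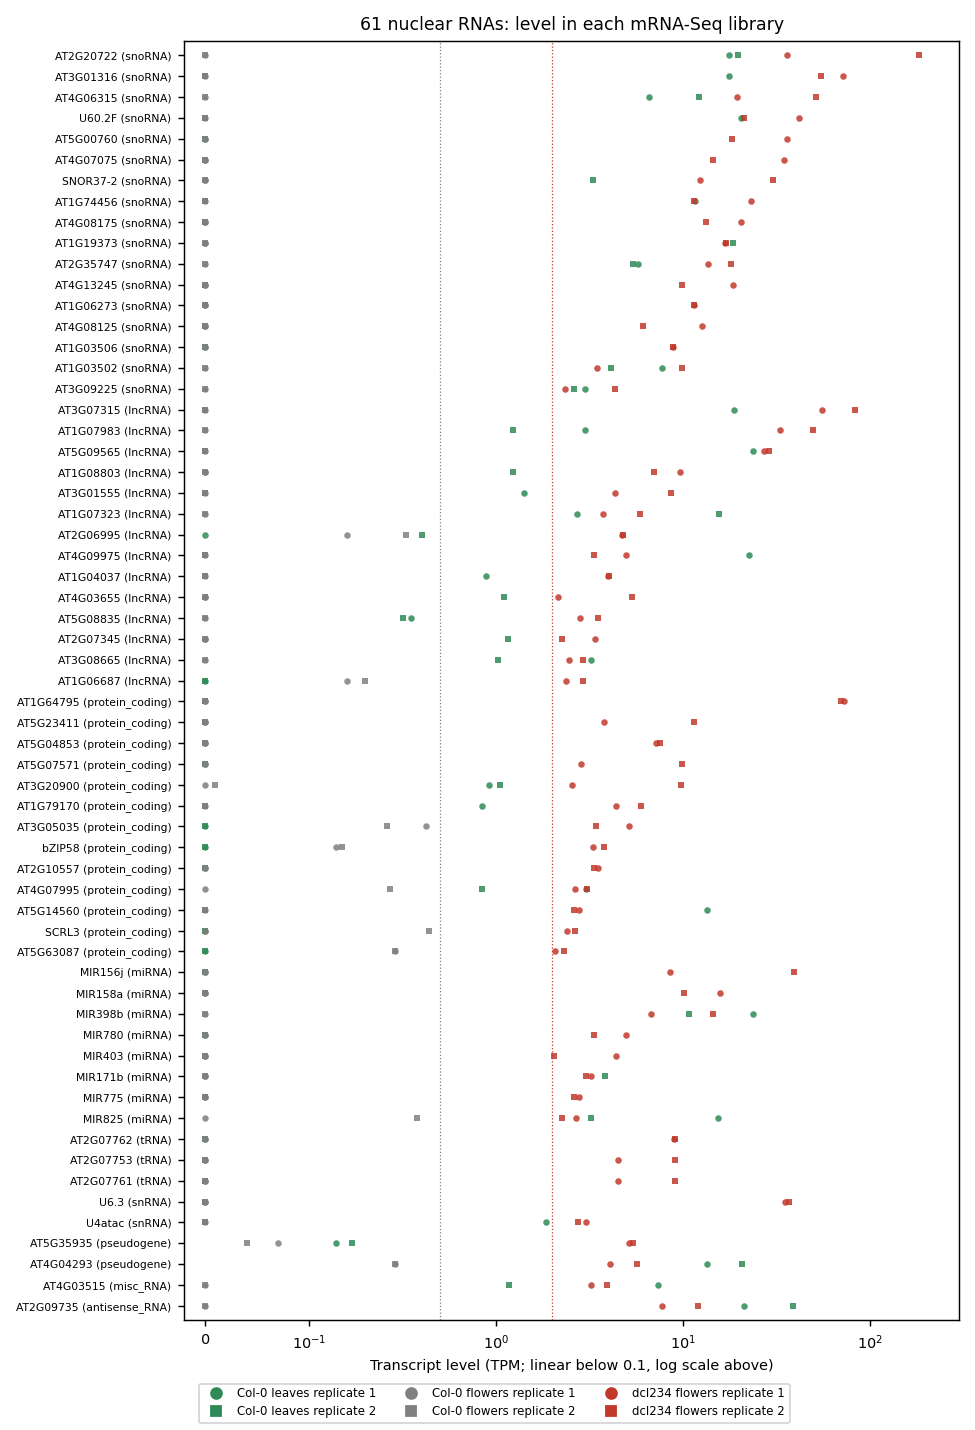
TPM of each of the 61 members in each mRNA-Seq library (linear below 0.1, log scale above), with circles for replicate 1 and squares for replicate 2, and dotted lines at 0.5 and 2 TPM. All grey symbols (Col-0 flowers) are at or left of 0.5 and all red symbols (dcl234 flowers) at or right of 2, which is how the members were chosen, while green symbols (Col-0 leaves) lie on both sides.

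AT5G35935 (chromosome 5, 14083388 to 14089891, minus strand, TAIR10.1) had the most read pairs behind its values. Its levels were 0.07 and 0.04 TPM in Col-0 flowers, 5.13 and 5.37 TPM in dcl234 flowers, and 0.14 and 0.17 TPM in Col-0 leaves. Both dcl234 flower values stood far above all 4 Col-0 values, which rest on 6 estimated pairs in Col-0 flowers and 12.9 in leaves against 777 in dcl234 flowers. It shared no exact stretch of 50 nt or more with another place in the genome.

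AT4G04293 (chromosome 4, 2076832 to 2077361, plus strand), the other pseudogene, gave 0.29 and 0.29 TPM in Col-0 flowers, 4.05 and 5.69 TPM in dcl234 flowers, and 13.48 and 20.54 TPM in Col-0 leaves. The leaf values were the highest of the 3 groups and did not overlap with either flower group. Between the pseudogenes the leaf levels therefore went in opposite ways, near 0 for AT5G35935 and above dcl234 flowers for AT4G04293.

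Both pseudogenes are listed in the siRNA tables, which give RPM (sRNA-Seq reads scaled to the genome-matching reads of the library) and were not used to choose the members. There are 2 such tables, named siR_21 and siR_24, and since which of the size classes (20 to 22 nt or 23 to 24 nt) each holds could not be settled, they are called by name. In table siR_21, AT5G35935 had 14.1 and 14.3 RPM in Col-0 flowers, 2.36 and 2.33 RPM in dcl234 flowers, and 8.76 and 6.89 RPM in Col-0 leaves. It fell by 2.19 on the log2(RPM + 1) scale in dcl234 flowers (SE 0.229, limma adjusted p = 4.91e-07). AT4G04293 had 168 and 175 RPM in Col-0 flowers, 27.1 and 29.9 RPM in dcl234 flowers, and 3.53 and 3.45 RPM in Col-0 leaves. It fell by 2.55 on the same scale (SE 0.162, limma adjusted p = 2.64e-09). A lower siR_21 level in dcl234 flowers was called for 99.6% of the 15813 transposons tested, with a median of -2.82, so the fall at both pseudogenes is shared with nearly the whole table.

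In table siR_24, AT4G04293 had 56.5 and 55.5 RPM in Col-0 flowers, 172 and 165 RPM in dcl234 flowers, and 2.73 and 11.3 RPM in Col-0 leaves. It rose by 1.57 on the log2(RPM + 1) scale (SE 0.365, limma adjusted p = 0.00506), where 3.35% of 12440 transposons were called higher and the median was -0.38. This call was lost in 5 of the alternatives tried. In 4 of them the difference stayed between 1.56 and 1.59, with a limma adjusted p of 0.0704 without Col-0 flowers replicate 1, 0.0865 without Col-0 flowers replicate 2, 0.0647 with a pseudocount of 0.1 and 0.0669 with no filter. After scaling to the miRNA reads of each library the difference was 0.59 (limma adjusted p = 0.345). AT5G35935 had 2.87 and 3.56 RPM in Col-0 flowers, 4.33 and 3.96 RPM in dcl234 flowers, and 0.455 and 0.246 RPM in Col-0 leaves, a difference of 0.29 (SE 0.266) that did not pass the test (limma adjusted p = 0.425). AT4G04293 thus had its highest mRNA level and its lowest level in both siRNA tables in leaves. The sums of table siR_21 were also lower in leaves (447000 and 410000) than in Col-0 flowers (904000 and 1020000). Those of table siR_24 were 99000 and 106000 against 254000 and 282000. AT5G35935 was likewise lower in leaves than in Col-0 flowers in both tables, with leaf mRNA near 0. No leaf contrast was tested.

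**Figure D4:**
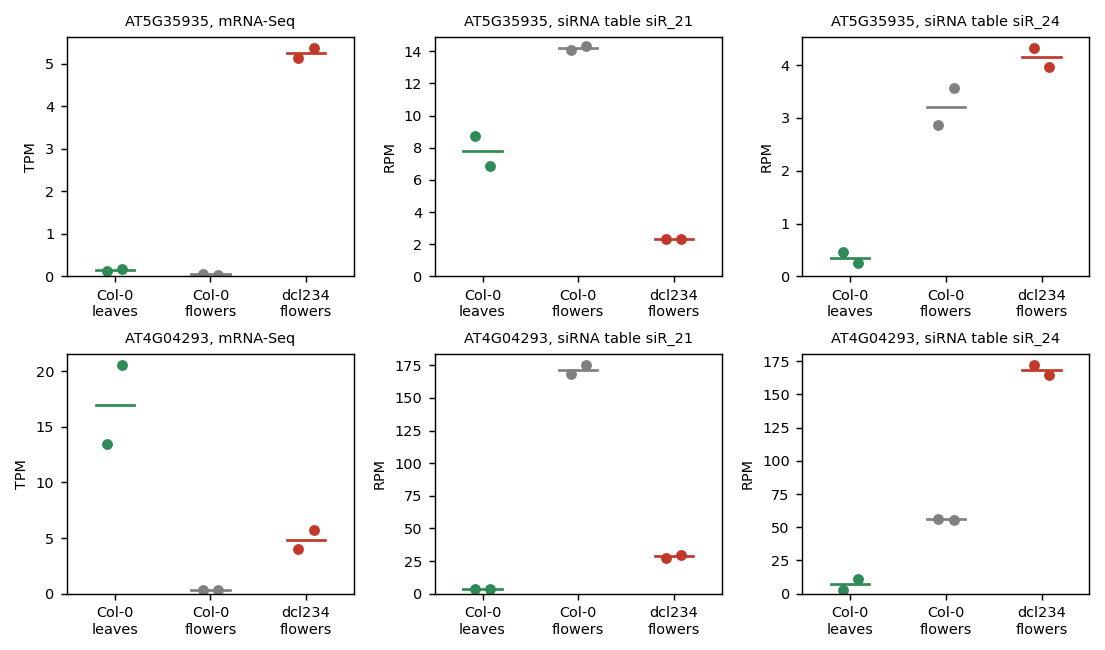
mRNA level (TPM) and siRNA level in tables siR_21 and siR_24 (RPM) of AT5G35935 (top row) and AT4G04293 (bottom row) in leaves and flowers of Col-0 and in flowers of dcl234. Points are the 2 replicates and lines their mean; in table siR_21 both dcl234 flower values lie below both Col-0 flower values for each gene, and for AT4G04293 the mRNA is highest in leaves (13.48 and 20.54 TPM).

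AT1G64795, which encodes an uncharacterized protein from a transcript of 201 nt (chromosome 1, 24082579 to 24082848, plus strand), was listed at 0 in Col-0 flowers and Col-0 leaves and reached 72.49 and 69.76 TPM in dcl234 flowers, or 160 estimated pairs. Its mean in dcl234 flowers was 17.3-fold the level of 3 pairs in a Col-0 flower library, a description of the values that chose it. It overlaps 142 nt of exon of ILA (AT1G64790) on the opposite strand, and ILA gave 7.23 and 7.61 TPM in Col-0 flowers against 7.26 and 6.95 TPM in dcl234 flowers. The mRNA-Seq method is not described as keeping strand, so reads of a gene and of its antisense partner cannot be told apart where they overlap.

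bZIP58 (AT1G13600, chromosome 1, 4650606 to 4651549), a basic leucine-zipper protein, gave 0.14 and 0.15 TPM in Col-0 flowers, 3.31 and 3.8 TPM in dcl234 flowers, and 0 in leaves. These values rest on 2 estimated pairs in Col-0 flowers and 69 in dcl234 flowers, and no other gene overlaps it. Among the members with no overlapping gene it was the protein-coding gene with the most read pairs. AT5G07571, an oleosin family protein, was listed at 0 in Col-0 flowers and leaves against 2.86 and 9.82 TPM in dcl234 flowers. It overlaps exon of AT5G07572 on the opposite strand, so its reads are uncertain as to the gene where they overlap. Oleosins coat lipid bodies, and several of the family are known from the tapetum, the nurse tissue of pollen. The summed TPM of 4 tapetum markers (A9, ATA7, AMS and MS1) was 145 and 204 in Col-0 flowers against 344.5 and 503.2 in dcl234 flowers. Most of that rise was in ATA7, at 97.65 and 109.32 TPM against 242.53 and 381.69 TPM. The summed TPM of floral organ markers was also higher in dcl234 flowers, at 552.0 and 738.1 against 271.4 and 388.8 in Col-0 flowers. The part of these differences in the AT5G07571 values was not tested.

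SCRL3 and a thionin family gene encode small proteins of families that are mostly secreted. SCRL3 (AT1G08695), of a family of small cysteine-rich proteins related to the S locus protein SCR, gave 0 and 0.44 TPM in Col-0 flowers against 2.4 and 2.63 TPM in dcl234 flowers. AT5G63087, a plant thionin family protein, gave 0.29 and 0.29 TPM against 2.06 and 2.31 TPM, and both genes were listed at 0 in leaves. AT3G05035, annotated as an exportin-4 protein, gave 0.42 and 0.26 TPM in Col-0 flowers, 5.13 and 3.41 TPM in dcl234 flowers and 0 in leaves. It overlaps exon of the lncRNAs AT3G01565 and AT3G01575 on the opposite strand. The other protein-coding members (AT1G79170, AT2G10557, AT3G20900, AT4G07995, AT5G04853, AT5G14560 and AT5G23411) ranged from 2.56 to 11.45 TPM in the dcl234 flower libraries. AT5G14560 was the one with the highest leaf value, 13.48 TPM in replicate 1 beside 0 in replicate 2. Of the 13 protein-coding members, 9 were listed at 0 in both leaf libraries, and 8 overlap an exon of another gene on the opposite strand. Within these overlaps the reads cannot be told apart.

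Of the 14 lncRNAs, 11 overlap an exon of another gene on the opposite strand, and 9 of these are annotated as natural antisense transcripts. AT3G07315, AT1G07983, AT5G09565, AT4G09975, AT1G08803 and AT3G08665 lie over their whole length in exon of the sense gene. Strand is not known to be kept, so their reads cannot be told apart from those of that gene. AT3G07315 (chromosome 3, 16897762 to 16898010), antisense to the histone H2B gene HTB9, was listed at 0 in both Col-0 flower libraries against 55.33 and 83.35 TPM in dcl234 flowers, and its leaf values were 18.78 and 0 TPM. Its dcl234 flower mean was 25.3-fold the level of 3 pairs in a Col-0 flower library. This is no bound on the difference, since with all 249 nt in HTB9 exon a listed 0 need not mean few reads there. HTB9 itself gave 248.29 and 411.13 TPM in Col-0 flowers against 561.35 and 529.08 TPM in dcl234 flowers. AT1G07983, antisense to the histone variant gene GAMMA-H2AX, gave 33.09 and 49.61 TPM in dcl234 flowers, 0 in Col-0 flowers, and 3.0 and 1.24 TPM in leaves. GAMMA-H2AX gave 45.8 and 75.21 TPM in Col-0 flowers against 83.0 and 84.21 TPM in dcl234 flowers.

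AT5G09565, antisense to AT5G66052, gave 27.23 and 28.7 TPM in dcl234 flowers, 0 in Col-0 flowers, and 23.66 and 0 TPM in leaves. In all 3 antisense pairs the sense gene was well detected in Col-0 flowers, with AT5G66052 at 48.52 and 74.76 TPM. AT4G09975, antisense to AT4G39970, showed the same split between leaf libraries, with 22.43 and 0 TPM, beside 4.97 and 3.33 TPM in dcl234 flowers. For AT3G07315, AT5G09565 and AT4G09975 the spread between the leaf replicates was thus as large as the level itself. AT2G06995 (chromosome 2, 7633214 to 7634069) is a lncRNA with no overlapping gene, and gave 0.16 and 0.33 TPM in Col-0 flowers, 4.72 and 4.79 TPM in dcl234 flowers, and 0 and 0.40 TPM in leaves. These values rest on 3 estimated pairs in Col-0 flowers and 82 in dcl234 flowers.

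AT1G08803 differed from these pairs in its sense partner. It was listed at 0 in Col-0 flowers and reached 9.63 and 7.03 TPM in dcl234 flowers, with 0 and 1.23 TPM in leaves, and lies antisense within an exon of TPX2 (AT1G65970). TPX2 gave 121.78 and 172.52 TPM in Col-0 flowers against 35.21 and 49.68 TPM in dcl234 flowers. The listed values of the 2 genes thus differed between the flower groups in opposite directions. All 201 nt of AT1G08803 overlap TPX2, so reads of the 2 cannot be told apart and no antisense direction can be read. Over all 14 lncRNAs the dcl234 flower mean ran from 2.64 to 69.3 TPM and the estimated pairs from 6.98 to 231, and 13 of the 14 were above 0 in 1 or both leaf libraries. Those not described one by one were AT1G04037, AT1G06687, AT2G07345, AT3G01555, AT3G08665, AT4G03655 and AT5G08835, and none of these exceeded 8.59 TPM in any library. All of these but AT1G04037 overlap an exon of another gene on the opposite strand, so their reads are uncertain there.

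The snoRNAs held the single highest value of the set, but on few reads. AT2G20722 gave 35.86 and 181.6 TPM in dcl234 flowers, 0 in Col-0 flowers, and 17.57 and 19.73 TPM in leaves. These values correspond to 1.98 and 9.88 estimated pairs in dcl234 flowers and 1.02 in each leaf library. AT3G01316 gave 71.71 and 54.48 TPM in dcl234 flowers, 0 in Col-0 flowers, and 17.57 and 0 TPM in leaves. Both are 75 nt long, and their leaf value of 17.57 TPM is the level of a single pair. Over the 17 snoRNAs the dcl234 flower libraries together held 1.98 to 17.9 estimated pairs, with a median of 2.99, and 10 of the 17 were above 0 in 1 or both leaf libraries. In 5 snoRNAs the gene lies inside an intron of a protein-coding gene on the same strand, with no exon overlap. AtsnoR24d (AT4G08125) and AtsnoR24a (AT4G08175) lie 448 bp apart in the same gene, AT4G29410, which gave 131.83 and 216.12 TPM in Col-0 flowers against 308.97 and 275.32 TPM in dcl234 flowers. U60.2F (AT4G25631), at 41.7 and 21.2 TPM in dcl234 flowers, lies in an intron of FIB2, a gene for the nucleolar protein fibrillarin, which gave 23.52 and 48.17 TPM in Col-0 flowers against 42.52 and 37.55 TPM in dcl234 flowers. The hosts of all 5 were detected in Col-0 flowers, from 5.7 TPM (AT1G29465, around AtU33b) to 216.12 TPM (AT4G29410).

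The other snoRNAs with high values rested on similar numbers of reads. AtsnoR109 (AT4G07075) gave 34.44 and 14.52 TPM in dcl234 flowers and snoR119 (AT5G00760) gave 35.86 and 18.16 TPM, both with 0 in leaves. AtsnoR24a gave 20.42 and 13.33 TPM and AT4G13245 gave 18.45 and 9.89 TPM, again with 0 in leaves. AT1G74456 gave 22.97 and 11.48 TPM, AT1G19373 gave 16.7 and 16.88 TPM, AtU33b (AT1G06273) gave 11.49 and 11.48 TPM, and AT2G35747 gave 13.59 and 18.03 TPM. For AtU33b and AT1G19373 these are the levels of 1 pair in each library, and the leaf value of AT1G19373, 0 and 18.42 TPM, is likewise 1 pair. In 3 snoRNAs the gene overlaps an exon of another gene on the same strand. They are AT2G35747 (80 nt, in AT2G35750), AT3G09225 (124 nt, in AT3G59710) and AtsnoR109 (89 nt, in AT4G07070). Their reads are uncertain as to the gene.

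The following snoRNA sequences (RefSeq, TAIR10.1) show the boxes that mark C/D box snoRNAs, with the C box letters TGATGA and the D box letters CTGA in capitals wherever they occur on the transcribed strand.
AT2G20722: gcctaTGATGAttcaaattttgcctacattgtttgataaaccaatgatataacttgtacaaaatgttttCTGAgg
AT3G01316: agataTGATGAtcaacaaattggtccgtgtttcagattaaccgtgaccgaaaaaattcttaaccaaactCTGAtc
AT4G08125: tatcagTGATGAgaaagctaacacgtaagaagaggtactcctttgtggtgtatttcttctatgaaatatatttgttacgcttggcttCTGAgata
AT4G08175: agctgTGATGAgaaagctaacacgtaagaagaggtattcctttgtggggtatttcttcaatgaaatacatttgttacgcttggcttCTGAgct
AT2G20722 is at chr2:8931708-8931782 (minus strand), AT3G01316 at chr3:104835-104909 (minus), AT4G08125 at chr4:14468649-14468743 (minus) and AT4G08175 at chr4:14469192-14469284 (minus). Both motifs occur in 13 of the 17 snoRNA members and in 139 of all 287 snoRNA genes (48.4%). The C box letters within the first 20 nt together with the D box letters within the last 16 nt occur in 10 members and in 41.8% of all snoRNA genes. AT3G09225 and AtsnoR109 (AT4G07075) have neither motif. A match describes the letters only.

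The U6 gene U6.3 (AT4G07875) gave 34.85 and 37.0 TPM in dcl234 flowers and was listed at 0 in Col-0 flowers and leaves. Of its 101 nt, 100 lie in exact copies at other places on chromosomes 3, 4 and 5, and its whole length lies within an exon of NARA5 on the opposite strand, so its reads are uncertain. U4atac (AT4G06375), of the minor spliceosome, gave 3.04 and 2.76 TPM in dcl234 flowers, about 4 pairs together, against 1.84 and 0 TPM in leaves.

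The 3 tRNA members lie on chromosome 2, 2 of them 161 bp apart. All 75 nt of AT2G07762 are present without change in the mitochondrial genome. All 75 nt of AT2G07753 and AT2G07761 have exact copies elsewhere, on chromosome 2 and, over at least 50 nt, in the mitochondrial genome. AT2G07753 and AT2G07761 have the same sequence and the same values, 4.48 and 9.08 TPM in dcl234 flowers. AT2G07762 gave 8.96 and 9.08 TPM, and all 3 were listed at 0 in Col-0 flowers and leaves. With 1 pair worth 18.1 and 18.4 TPM at this length, these values are fractions of a pair (0.247 and 0.494) shared out between identical places. Reads of the nuclear and mitochondrial copies cannot be told apart where the 2 are identical, and the sequences of the nuclear genes are printed here.
AT2G07753 and AT2G07761: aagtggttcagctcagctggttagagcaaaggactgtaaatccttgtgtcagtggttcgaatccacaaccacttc
AT2G07762: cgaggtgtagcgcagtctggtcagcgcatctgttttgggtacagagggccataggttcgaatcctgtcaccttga
AT2G07753 is at chr2:3303354-3303428 (minus strand), AT2G07761 at chr2:3494776-3494850 (plus) and AT2G07762 at chr2:3495012-3495086 (plus).

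Other members with exact copies of 50 nt or more elsewhere brought the count to 10 of 61. The lncRNA AT1G06687 shares 61 nt with other sequence on chromosome 1. AT4G03515, the miscellaneous RNA of 400 nt, is identical over its whole length to another place on chromosome 4, and AT5G23411, a small protein gene, is identical over 147 nt to another place on chromosome 5. The snoRNA AT1G03502 has a full copy of 114 nt on chromosome 1, and SNOR37-2 (AT4G15258) and AtsnoR22-3b (AT4G06315), which lie 259 bp apart, share 127 and 75 nt with other places on chromosome 4. Their values, 12.36 and 30.34 TPM for SNOR37-2 and 19.34 and 51.52 TPM for AtsnoR22-3b in dcl234 flowers, are therefore uncertain as to the locus.

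Of 325 MIR genes, 8 were members: MIR156j, MIR158a, MIR171b, MIR398b, MIR403, MIR775, MIR780 and MIR825. A MIR gene is transcribed to a hairpin that DCL1 cuts, and the deposited TPM counts reads of the annotated hairpin transcript. MIR156j gave 8.51 and 39.38 TPM in dcl234 flowers and lies antisense within an exon of SPL9, a target gene of miR156, which gave 15.96 and 27.07 TPM in Col-0 flowers. MIR158a gave 15.73 and 10.14 TPM in dcl234 flowers, and MIR398b gave 6.71 and 14.45 TPM. MIR780 gave 4.96 and 3.35 TPM and MIR403 gave 4.38 and 2.03 TPM in dcl234 flowers. MIR171b gave 3.21 and 3.03 TPM, MIR775 gave 2.79 and 2.61 TPM, and MIR825 gave 2.69 and 2.26 TPM. All were at 0 in Col-0 flowers except MIR825, at 0 and 0.38 TPM. Each of the 8 precursors rested on 1.42 to 6.99 estimated pairs in both dcl234 flower libraries together, and for MIR171b and MIR775 the value in each dcl234 flower library is that of 1 pair.

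Leaf levels differed among these genes. MIR398b gave 23.73 and 10.82 TPM in leaves and MIR825 gave 15.38 and 3.20 TPM, both above their dcl234 flower means, and MIR171b gave 0 and 3.84 TPM. All 116 nt of MIR398b overlap an exon of AT5G14550 on the opposite strand, which gave 14.49 and 10.83 TPM in leaves. MIR825 overlaps an exon of AT2G26220 on the same strand, so the reads of both are uncertain as to the gene. The other 5 MIR members were listed at 0 in both leaf libraries.

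The mature miRNAs of these genes are shown because sRNA-Seq measured them in the same samples by a separate assay (RefSeq, TAIR10.1, with the seed, bases 2 to 8, in capitals).
miR171b-3p: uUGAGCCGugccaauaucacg
miR171b-5p: aGAUAUUAgugcgguucaauc
miR775: uUCGAUGUcuagcagugcca
miR825: uUCUCAAGaaggugcaugaac
miR156j: uGACAGAAgagagagagcac
miR403-5p: uGUUUUGUgcuugaaucuaauu
miR403-3p: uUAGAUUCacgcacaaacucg
miR158a-3p: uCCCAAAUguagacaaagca
miR158a-5p: cUUUGUCUacaauuuuggaaa
miR780.2: uUCUUCGUgaauaucuggcau
miR780.1: uCUAGCAGcuguugagcaggu
miR398b-5p: aGGGUUGAuaugagaacacac
miR398b-3p: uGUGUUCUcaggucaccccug
No seed is shared between 2 of the 8 genes. miR171b-3p belongs to the deposited family of miR170 and miR171, and miR156j to that of miR156 and miR157, each of which sums several genes, so a family level cannot be assigned to the member gene. miR398b-5p has the same value as miR398c-5p in every library.

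Unlike the precursors, the mature families were well detected in Col-0 flowers. Of 13 family rows from the 8 genes, 10 were higher in dcl234 flowers (limma on log2(RPM + 1), adjusted p under 0.05) and the other 3 did not pass the test, where 57.7% of all 156 families tested were higher and the median difference was 0.96. The median over the 13 rows was 1.34, and 7 were called when any 1 flower library was left out. RPM counts share a total, and the RPM sum of all miRNA families rose from 46700 and 48900 in Col-0 flowers to 92200 and 99000 in dcl234 flowers while the sum of table siR_21 went from 904000 and 1020000 to 81900 and 80100. Scaled to the miRNA reads of each library, 3 of the 13 remained higher (miR775, miR158a-5p and miR398b-5p) and 1, miR158, was lower (-0.79, limma adjusted p = 0.0322).

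miR158a-5p had 55.7 and 70.9 RPM in Col-0 flowers, 527 and 751 RPM in dcl234 flowers, and 82.1 and 138 RPM in leaves. It rose by 3.30 on the log2(RPM + 1) scale (SE 0.355, limma adjusted p = 6.32e-05), and by 2.32 on the miRNA scale. The family of its partner strand, miR158, had 9310 and 12000 RPM in Col-0 flowers and 12200 and 12200 RPM in dcl234 flowers (limma adjusted p = 0.355). miR398b-5p had 61.8 and 92.1 RPM in Col-0 flowers, 315 and 559 RPM in dcl234 flowers, and 1870 and 912 RPM in leaves (difference 2.46, SE 0.407, limma adjusted p = 0.000453). Its leaf values were the highest, as was the leaf mean listed for the MIR398b precursor, whose reads are uncertain as to the gene. miR775, a miRNA annotated as targeting a galactosyltransferase, had 6.49 and 7.85 RPM in Col-0 flowers, 40.4 and 45.3 RPM in dcl234 flowers, and 8.19 and 17.2 RPM in leaves (difference 2.43, SE 0.372, limma adjusted p = 0.000326).

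The remaining rows were smaller or depended on the scale. miR403, which targets the Argonaute gene AGO2, had 256 and 307 RPM in Col-0 flowers and 970 and 926 RPM in dcl234 flowers (difference 1.75, SE 0.264, limma adjusted p = 0.00029; 0.0543 on the miRNA scale). miR825 had 3.93 and 4.94 RPM in Col-0 flowers and 6.39 and 3.03 RPM in dcl234 flowers, and these overlapped. miR780.1 had 674 and 602 RPM in Col-0 flowers and 1840 and 2040 RPM in dcl234 flowers (difference 1.60, SE 0.523, limma adjusted p = 0.0189), whereas miR780.2, from the same hairpin, had 1050 and 803 RPM and 740 and 804 RPM (limma adjusted p = 0.613). The call of miR780.1 was lost in 6 of the alternatives, among them leaving out any 1 flower library (limma adjusted p from 0.0931 to 0.135, differences from 1.52 to 1.69) and miRNA scaling (difference 0.61, limma adjusted p = 0.484). The call of the miR398 family, with 56.2 and 76.3 RPM in Col-0 flowers and 140 and 158 RPM in dcl234 flowers (difference 1.17, SE 0.478, limma adjusted p = 0.0487), was lost in 8.

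**Figure D5:**
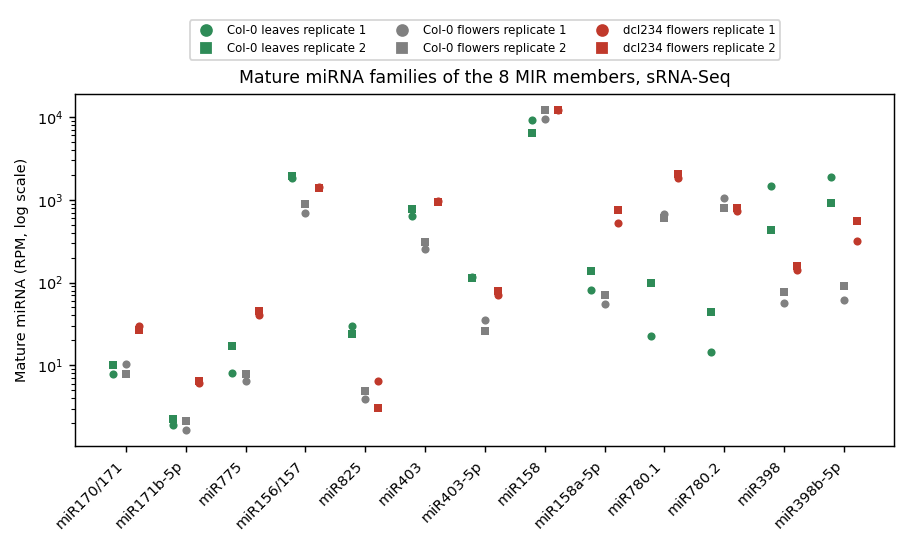
RPM (log scale) of the mature miRNA families that the 8 MIR members give rise to, in dcl234 flowers (red), Col-0 flowers (grey) and leaves (green), with circles for replicate 1 and squares for replicate 2. All families are above 0 in Col-0 flowers, from 1.66 RPM (miR171b-5p) to 12000 RPM (miR158).

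Of the 61 members, 10 (16.4%) were at or over 2 TPM in both leaf libraries. Among all 16167 nuclear genes at or under 0.5 TPM in both Col-0 flower libraries the share was 1.1%, and no test of this difference was made. The leaf values of several of the shortest of the 10 rest on about 1 pair or less a library: the estimates were 0.459 and 0.382 pairs for AT2G35747, 0.97 and 0.797 for AT3G09225, 1.02 and 1.02 for AT2G20722 and 0.809 and 1.34 for AT4G06315, and the shares were not matched for length. The 10 were AT2G09735, AT2G20722, MIR398b, AT4G04293, AT4G06315, MIR825, AT1G07323, AT1G03502, AT2G35747 and AT3G09225. AT2G09735, an antisense RNA of AT2G46600, had 21.2 and 38.58 TPM in leaves and 7.67 and 11.96 TPM in dcl234 flowers, and AT2G46600 gave 255.72 and 374.58 TPM in leaves. All 99 nt of AT2G09735 overlap an exon of AT2G46600, so reads of the 2 cannot be told apart. AT1G07323, a lncRNA with no overlapping gene, had 2.70 and 15.49 TPM in leaves and 3.75 and 5.85 TPM in dcl234 flowers. In 8 members the leaf mean was above the dcl234 flower mean. In 26 members both leaf values were 0, in 18 only 1 was above 0, and in 17 both were. More members reached 2 TPM in leaf replicate 1 (21) than in leaf replicate 2 (13).

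The members lay on all 5 chromosomes, 16, 12, 8, 15 and 10 on chromosomes 1 to 5, or 0.165%, 0.19%, 0.105%, 0.257% and 0.119% of the genes of each. There were 6 pairs of members with a gap of at most 5000 bp, among them MIR398b with AT5G14560 and AT3G01555 with AT3G05035. The nearest member to DCL2, DCL3 or DCL4 was 629290 bp from it, and 3 members were within 1 Mb. Of the 61, 25 overlap an exon of another gene on the opposite strand, 5 an exon on the same strand, 5 lie in an intron only and 26 overlap no other gene.

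At the edge of the rule, MIR403 (4.38 and 2.03 TPM in dcl234 flowers), AT5G63087 (2.06 and 2.31) and AT4G03655 (2.15 and 5.35) were just inside. AT1G16490 (1.89 and 3.64), AT1G51402 (2.92 and 1.87) and AT4G05071 (1.87 and 3.44) were just outside on the dcl234 side. AT1G31720 (0.55 and 0.51 TPM in Col-0 flowers), AT2G08635 (0.55 and 0) and AT1G09610 (0.43 and 0.57) were just outside on the Col-0 side.

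Over the 14213 nuclear genes at 1 TPM or more in all 6 libraries the median dcl234 flower level was 0.57 higher on the log2 scale than that of Col-0 flowers. The calls that follow were made on TPM without correction for that shift. Of 31 genes on a list of dicers, RNA-dependent RNA polymerases, Pol IV and Pol V subunits, Argonautes, DNA methylation genes, silenced genes and TAS loci, 26 were tested, 6 rose and 2 fell, against 1.39% higher and 0.56% lower of all 19809 genes. The 6 were all tested TAS loci, the tasiRNA precursors, of 7 on the list: TAS1A, TAS1B, TAS1C, TAS2, TAS3 and TAS3B. With median-equalised TPM, 3 TAS loci were called higher and 2 genes of the list lower. TAS3B gave 0.66 and 3.55 TPM in Col-0 flowers against 24.98 and 21.96 TPM in dcl234 flowers, and TAS1C gave 10.19 and 16.09 TPM against 82.67 and 85.76 TPM. The other that fell beside DCL3 was ROS1, a DNA demethylase, at 10.8 and 14.19 TPM against 2.60 and 2.31 TPM. Without any 1 of the 4 flower libraries at most 2 genes of the list were called, and DCL3 was not among them. None of the 31 list genes was a member.

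The 5 floral organ markers (AP1, AP3, PI, AG and SEP3) summed to 271.4 and 388.8 TPM in Col-0 flowers against 552.0 and 738.1 TPM in dcl234 flowers, and to 2.57 and 4.23 TPM in leaves. The 3 defence markers (PR1, PR2 and PR5) were highest in leaf replicate 2, at 202.6 TPM, against 28.36 TPM in leaf replicate 1 and at most 5.1 TPM in any flower library. The leaf photosynthesis markers (RBCS1A, RBCS1B, LHCB1.3 and RCA) summed to 38380 and 27470 TPM in leaves, 9662 and 11560 TPM in Col-0 flowers, and 17390 and 18780 TPM in dcl234 flowers. The 4 late pollen markers summed to 973.7 and 1119 TPM in Col-0 flowers against 417.3 and 812.8 TPM in dcl234 flowers. In bulk tissue, fewer cells of a type and less RNA per cell cannot be told apart, and the part of these marker differences in the members' values was not tested.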

How the data were processed

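mRNA-Seq and sRNA-Seq of 6 samples each were used, 12 libraries in all. The authors aligned paired 50-base mRNA-Seq reads to TAIR10 and the ERCC spike-ins with RSEM and deposited TPM of Araport11 genes, and counts were not used here. The deposited RPM values of miRNA families and transposon siRNAs were made by the authors from reads with perfect Bowtie matches to TAIR10.

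Gene models were taken from RefSeq TAIR10.1, with 61 of 61 members matched. The members and lists were chosen with earlier results of these data known. Read pairs behind each TPM value were estimated from the TPM steps by transcript length (90.2 to 91.4% of values under 5 pairs were whole within 0.1 pair at 600 to 2500 nt, but 57.1 to 64.8% under 200 nt). Exact copies of at least 50 nt were found with BLAST+ 2.17.0. limma 3.58.1 (R 4.3.3) with a mean-variance trend was run over all rows with a mean of at least 1, on log2(value + 1), with all 6 libraries and Benjamini-Hochberg adjustment at 0.05, after tests on simulated data. In the siRNA tables, 99.95 to 100% of values under 20 reads were whole reads within 0.05, and edgeR 4.0.16 on these reads called 25 transposons higher and 15753 lower in table siR_21, and 496 higher and 4117 lower in table siR_24. Named genes were the 20 members highest in dcl234 flowers, the 5 highest in leaves, those at or over 2 TPM in both leaf libraries, all MIR members, those at the edge of the rule, those in siRNA tables, and DCL2, DCL3 and DCL4; others named were chosen after their values were seen. tasiRNA tables were not used here.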

Additional observations from a re-analysis of the deposited data

How the results depend on the processing

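The 61 members became 99 with a Col-0 flower limit of 1 TPM, 131 with a dcl234 flower floor of 1 TPM, 28 with a floor of 5 TPM, and 15 when only transcripts of 300 nt or more were counted. Median-equalised TPM left 48, all of them among the 61, and leaving out 1 flower library gave 88 to 188, the highest without Col-0 flowers replicate 2. The count at or over 2 TPM in leaves was 13 to 21 when 1 leaf library was left out. Of the 2 pseudogenes, 2 were called in table siR_21 under every alternative run. In table siR_24 the count of 1 went to 0 with pseudocount 0.1, with no filter, and with miRNA scaling, and was 0 to 1 without 1 flower library; AT5G35935 reversed to -0.61 with miRNA scaling. The 8 calls of the pathway list became 4 with pseudocount 0.1, 0 with no filter, 5 with median-equalised TPM, and 0 to 2 without 1 flower library. Against 10 mature family calls, all higher, miRNA scaling gave 4, of which 3 were higher and 1 was lower, and there the family of miR156 and miR157 reversed to -0.16, miR158 to -0.79 and miR825 to -0.98. miR825 also reversed to -5.9e-05 with pseudocount 0.1 and ran from -0.43 to 0.45 when 1 flower library was left out (-0.12 without Col-0 flowers replicate 1). The cause was not tested in any of these.

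Replicates of Col-0 and dcl234 flowers with the same number share only a number: their deviations correlated at 0.0427 in mRNA, 0.00133 in table siR_21, -0.0776 in table siR_24 and 0.0576 in miRNA families. With the replicate block, 2 pseudogenes were called in table siR_21, 1 in table siR_24, 8 list genes and 10 mature families, and over all genes the mRNA calls were 734 higher and 263 lower against 275 and 111 without it.

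Depth limited many members: 24 of 61 rested on at most 5 estimated pairs. The alternatives on the mature families, the mirrored rule and the 300 nt split were chosen after seeing the data.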
